A study of Homo sapiens with 12 samples.

Results

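The homeostatic microglia genes considered here are P2RY12, P2RY13, CX3CR1, TMEM119, SALL1, GPR34, CSF1R, MERTK, TGFBR1 and SLC2A5, 10 of the 62703 genes in the count table. They were taken by name, as genes that mark or maintain surveying microglia, and each was described in all 12 libraries. The libraries are bulk RNA-seq of iMGLs, microglia-like cells made in culture from WTC11, an established line of human induced pluripotent stem cells. WTC11 was edited with CRISPR to give 3 control clones, called WT (J, K, L), and 3 clones called LACTB KO (A, B, C). LACTB encodes a mitochondrial serine protease-like protein. Each clone went through 2 differentiations, so that each genotype has 6 libraries, and a library is named here by its clone letter and differentiation number (J2 is WT clone J, differentiation 2). All cells passed through hematopoietic precursors and were then kept in medium with IL34 at 100 ng/ml, TGFb at 50 ng/ml and MCSF at 25 ng/ml. By the labels, CX3CL1 and CD200, at 100 ng/ml each, were added on day 24, cells were collected on day 27, and no further treatment was given. The cells were grown in culture only, and the clones of both genotypes share 1 parental line. The comparison of genotypes asks whether these identity genes had another level in iMGLs edited in LACTB.

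Microglia are the resident macrophages of the brain. CSF1R signaling, driven by IL34 or CSF1, keeps them alive, and TGF-beta signaling through TGFBR1 maintains the resting program to which P2RY12, P2RY13, CX3CR1, TMEM119, SALL1, GPR34, MERTK and SLC2A5 are counted. Many of these genes fall when microglia are activated or are taken out of the brain, and TMEM119 and SALL1 are often low in cultured cells.

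Estimated counts summed to between 24153233 and 28406943 per library (median 27456868). LACTB had between 71.3 and 97.9 CPM (counts scaled to equal library size, with TMM normalization) in the 6 WT libraries, and between 7.48 and 9.77 CPM in clones A and C, but 44.4 and 51.6 CPM in clone B, which is labelled as LACTB KO. Every LACTB KO clone was thus below every WT clone. WT library J2 stood apart: it had the highest level of all 12 libraries in 2733 of 15530 genes and the lowest in 2410, more in each direction than any other library, and its LACTB level of 81.0 CPM lay among the other WT libraries. Genotype values of the 10 genes that rest on J2 are given with and without it. Differences between differentiations that rest on it are given with and without clone J, since each clone has 1 library of each. In bulk RNA, fewer cells of a type and less RNA per cell cannot be told apart. The clones are the replicates, so p-values measure the spread between clones of 1 cell line.

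RefSeq promoter sequences (GRCh38.p14) were found for 7 of the 10 genes, in 18 windows of 250 bases before an annotated start. Windows of P2RY12, P2RY13, CX3CR1 and CSF1R are shown because the levels of these 4 genes went together over the libraries, with capitals where a searched motif occurs. All 4 genes lie on the minus strand and are printed 5′ to 3′ along the gene. The P2RY12 window chr3:151384754-151385003 ends at its most upstream start, the P2RY13 window is chr3:151329550-151329799, and the CX3CR1 window is chr3:39281736-39281985. For CSF1R the inner start, the one macrophages use, is shown as the stretch chr5:150086608-150086804 and, next to the start, the 30 bases chr5:150086555-150086584. Of the 250 bases of this window, 53 lie in annotated exons of CSF1R itself, and the first stretch is the part outside them. The 30 bases next to the start are thus exonic, and the bases between the stretches are not shown.
P2RY12: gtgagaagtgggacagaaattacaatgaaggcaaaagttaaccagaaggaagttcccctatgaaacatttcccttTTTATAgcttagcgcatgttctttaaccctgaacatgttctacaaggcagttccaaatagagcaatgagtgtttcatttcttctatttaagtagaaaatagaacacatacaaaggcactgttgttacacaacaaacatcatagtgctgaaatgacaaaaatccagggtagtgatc
P2RY13: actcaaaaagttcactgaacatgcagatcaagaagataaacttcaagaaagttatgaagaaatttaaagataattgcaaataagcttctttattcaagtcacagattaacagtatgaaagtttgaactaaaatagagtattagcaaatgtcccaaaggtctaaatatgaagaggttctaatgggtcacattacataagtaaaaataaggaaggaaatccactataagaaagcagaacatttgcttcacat
CX3CR1: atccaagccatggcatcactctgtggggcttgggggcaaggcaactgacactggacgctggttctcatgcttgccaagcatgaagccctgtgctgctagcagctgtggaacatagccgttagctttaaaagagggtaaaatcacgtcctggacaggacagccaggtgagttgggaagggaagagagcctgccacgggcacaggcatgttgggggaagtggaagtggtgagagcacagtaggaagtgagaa
CSF1R, away from the start: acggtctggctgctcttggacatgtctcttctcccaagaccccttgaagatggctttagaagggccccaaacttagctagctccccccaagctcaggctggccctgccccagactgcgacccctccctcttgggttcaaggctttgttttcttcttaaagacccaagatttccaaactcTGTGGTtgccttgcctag
CSF1R, next to the start: gcccaaggagGAGGAAGAGGAAaacaagac
The capitals next to the CSF1R start are a tandem pair of GAGGAA, letters that PU.1, the master factor of myeloid cells, can bind, at positions -20 to -15 and -14 to -9 from the start. Only whole matches to a searched motif are in capitals, so shorter stretches of it, such as GGAA, stay in lower case. Farther out, TGTGGT, the letters bound by RUNX factors, stands at -71 to -66. The capitals of P2RY12 are TATAAA read on the other strand, at -175 to -170. On both strands, GAGGAA was found in 4 of the 18 windows, belonging to CX3CR1 (at another of its starts), CSF1R and TGFBR1, against 23.6% of 34788 RefSeq promoter windows of the same length. TGTGGT was found in 1 window, against 11% of all. GAGGAAGT, which overlaps GAGGAA, GTCTAGAC (the SMAD palindrome), and the MEF2 and IRF motifs were found in 0 of the 18 windows, against 2.18%, 0.178%, 2.37% and 3.02% of all windows. TATAAA stood in 3 windows, of P2RY12 and SLC2A5, against 10.8% of all. These matches describe letters in these windows, and no binding was measured.

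Levels of different genes were compared per length, as CPM per kb of exon. CSF1R was highest, with a median of 343 CPM per kb over the 12 libraries, and ranked 53 among 36883 genes with at least 1 count. CX3CR1 followed at 226 CPM per kb (rank 100) and GPR34 at 89.3 (rank 342). P2RY13, TGFBR1 and P2RY12 had medians of 57.2, 56.3 and 41.4 CPM per kb, MERTK 14.6 and SLC2A5 3.79. TMEM119 and SALL1 were far lower, with medians of 0.242 and 0.0647 CPM per kb. Of neighbours in this order, P2RY13 and TGFBR1 did not differ beyond their spread, P2RY13 being higher in 6 of 12 libraries. Each of the other neighbouring pairs kept its order in 11 or 12 of the 12 libraries. Of the markers of the labelled cell type, 8 of the 10 were thus clearly expressed, whereas SALL1 was low in all libraries and TMEM119 in all but J2, where it reached 3.36 CPM per kb, near the median of SLC2A5. The pan-myeloid genes were well expressed in all libraries, the list of 20 summing to between 14496 and 17974 CPM.

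**Figure D1:**
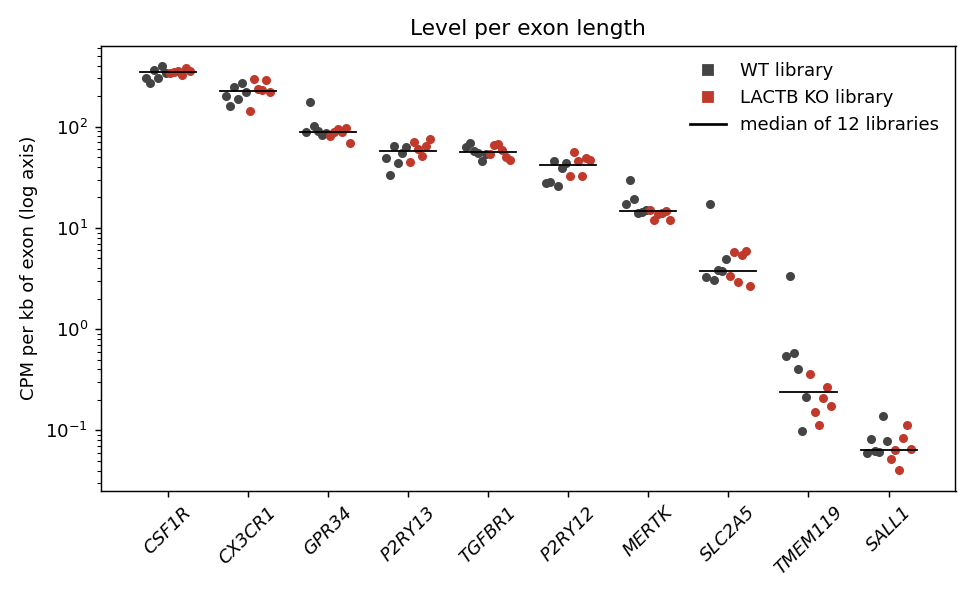
Level per exon length of the 10 genes in 12 libraries, in CPM per kb of exon on a log axis, with WT libraries in grey, LACTB KO libraries in red and a bar at the median of the 12. CSF1R and CX3CR1 lead with medians of 343 and 226, while TMEM119 and SALL1 lie at 0.242 and 0.0647, and single WT points above the rest for GPR34, MERTK, SLC2A5 and TMEM119 are library J2.

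Between genotypes, none of the 10 genes passed the test (edgeR's quasi-likelihood test on 6 clone sums, Benjamini-Hochberg adjusted p between 0.754 and 0.996 for the 10), and neither did any other gene, 0 of 17577 (0%). At an unadjusted p under 0.05 edgeR gave 1118 genes over the whole table. DESeq2's Wald test on the same sums called 171 genes by adjusted p, and limma voom with clone as random effect 0, none of the 10 among them in either. Of the 10, MERTK and TMEM119 had an unadjusted p under 0.05 with a lower level in LACTB KO, against 5.56% of all genes. None had one with a higher level, against 0.802% of all genes. MERTK alone had every LACTB KO clone below every WT clone, against 6.58% of all genes, and no member had every LACTB KO clone above, against 4.1%. The 10 log2 fold changes had a median of -0.10, where all genes had 0.0067, with 4 of the 10 positive.

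**Figure D2:**
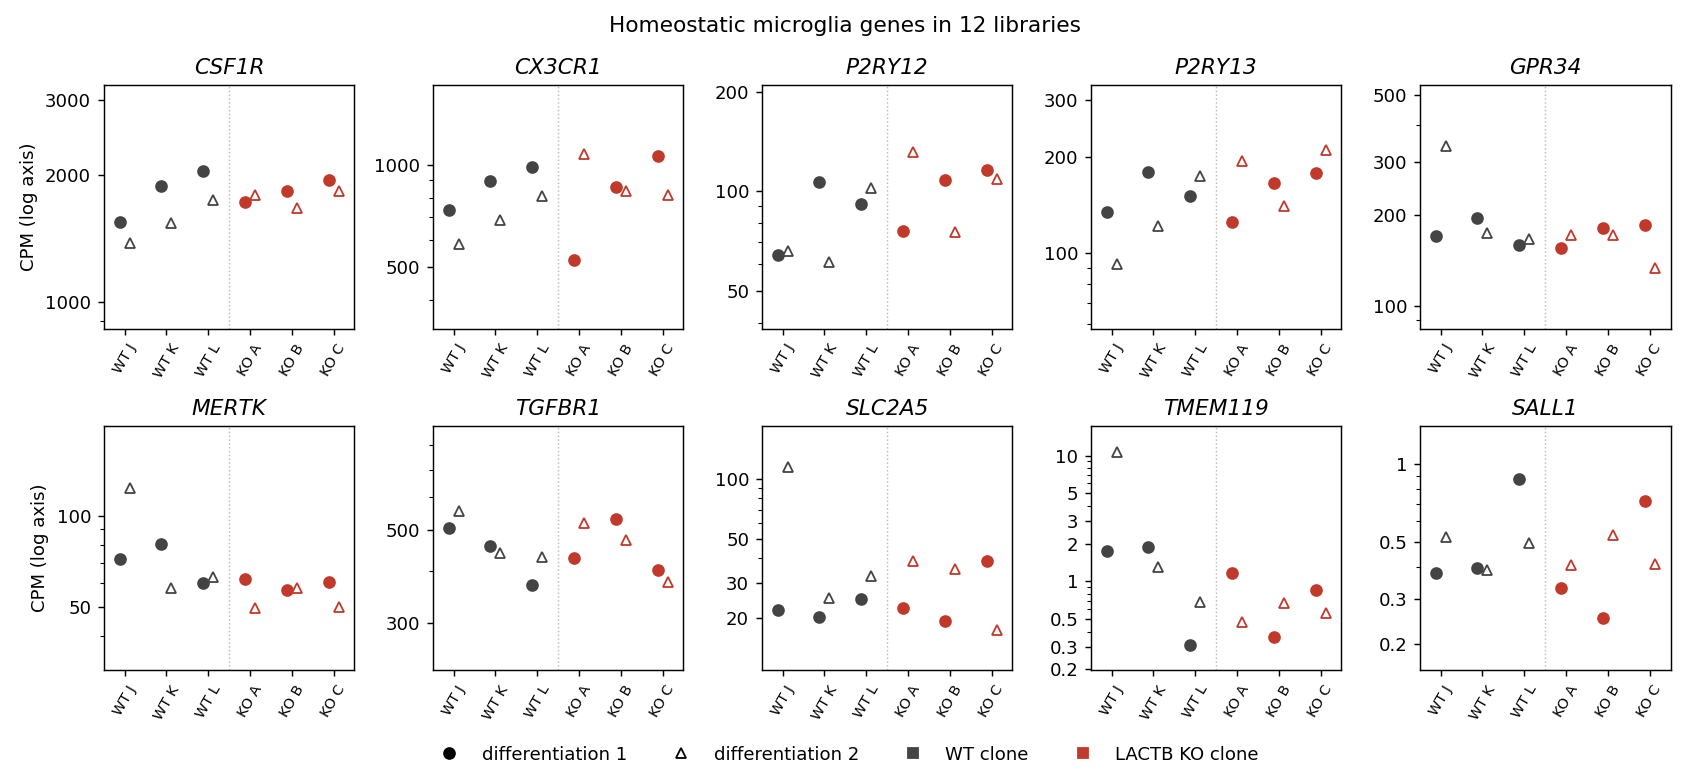
CPM (log axis, its range set for each gene) of the 10 genes in each of 6 clones, with differentiation 1 as filled circles and differentiation 2 as open triangles, WT clones in grey to the left of the dotted line and LACTB KO clones in red to the right. The genotypes overlap in every panel, and the open grey triangle of WT clone J lies above all other points for GPR34 (338), MERTK (123), TGFBR1 (556), SLC2A5 (115) and TMEM119 (10.7).

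CSF1R (ENSG00000182578.14, GRCh38 chr5:150053291-150113372, minus strand) encodes the receptor tyrosine kinase for CSF1 and IL34, both supplied in the medium. It had between 1381 and 2038 CPM in WT libraries (median 1644) and between 1665 and 1940.3 CPM in LACTB KO libraries (median 1809). The genotypes overlapped, and the lowest library was J2. WT averaged 1688 ± 245 CPM and LACTB KO 1796 ± 94.8 CPM (SD, n = 6 libraries each). The log2 fold change was 0.09 (95% interval -0.18 to 0.36, edgeR adjusted p = 0.901), so that a difference larger than this interval was not seen. Without J2 it was 0.0734, and without WT clone J -0.00837. CSF1R was the gene with the smallest ratio of highest to lowest library of the 10, at 1.48. Of the 9 tested genes among 10 ligands and partners of CSF1R, 0 passed the adjusted test, and only PTPRZ1, a further receptor for IL34, had an unadjusted p under 0.05 (log2 fold change -1.24, edgeR adjusted p = 0.726). PTPRZ1 was barely detected, with between 7 and 29 counts in WT libraries and between 3 and 10 in LACTB KO libraries. The median log2 fold change of the list of ligands and partners was 0.06. SPI1, the gene of PU.1, had between 12859 and 16910 counts in every library.

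CX3CR1 (ENSG00000168329.14, chr3:39263495-39281735, minus strand) encodes the receptor for CX3CL1, by which microglia sense neurons. WT libraries had between 585 and 986 CPM (median 772), and LACTB KO libraries between 525 and 1073 CPM (median 848). The lowest and the highest library both came from LACTB KO clone A, A1 and A2, so that this clone alone spanned the whole range. The log2 fold change was 0.15 (95% interval -0.16 to 0.46, edgeR adjusted p = 0.878), and within differentiations it was -0.10 in differentiation 1 and 0.38 in differentiation 2. Among CX3CL1 and its sheddases ADAM10 and ADAM17, 0 of 3 passed either threshold, with a median of -0.08.

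P2RY12 (ENSG00000169313.10, chr3:151336843-151384753) and P2RY13 (ENSG00000181631.7, chr3:151326312-151329549) are neighbouring ADP receptors on the minus strand, and P2RY12 steers microglial processes toward released nucleotides. P2RY12 had between 61.2 and 107 CPM in WT libraries (median 78.5), and between 75.2 and 131 CPM in LACTB KO libraries (median 108). The genotypes overlapped, with 3 WT libraries (J1, J2 and K2) below all LACTB KO libraries. The clone means of P2RY12 were 65.0, 84.0 and 96.8 CPM in J, K and L, and 103.5, 91.6 and 112 CPM in A, B and C. Its log2 fold change was 0.34 (95% interval -0.03 to 0.70, edgeR adjusted p = 0.819), and it was 0.341 without J2, 0.187 without WT clone J and 0.474 without WT clone L. Its unadjusted p did not reach 0.05 in this test, but did without WT clone L (edgeR adjusted p = 0.314). With all libraries it also did when no filter was set (edgeR adjusted p = 0.643) and in DESeq2's Wald test (adjusted p = 0.667). With pairs of clones as block it did too (edgeR adjusted p = 0.551), but these pairs were chosen after seeing the data. That fit counts the 2 libraries of a clone as separate replicates. P2RY13 had between 92.9 and 179 CPM in WT libraries (median 143) and between 125 and 209 CPM in LACTB KO libraries (median 172), with J2 lowest of the 12. Its log2 fold change was 0.26 (95% interval -0.10 to 0.62, edgeR adjusted p = 0.878), 0.01 in differentiation 1 and 0.49 in differentiation 2. It was 0.192 without J2 and 0.117 without WT clone J. Both genes lie inside MED12L on the other strand, which shares 220 bases (9.414%) of the P2RY12 exons and none of those of P2RY13. MED12L had between 29 and 53 counts per library, against between 1700 and 3558 for P2RY12. Of 13 other purine receptors and enzymes of nucleotide turnover, 0 passed the adjusted test and NT5E, which makes adenosine from AMP, had an unadjusted p under 0.05 (log2 fold change -1.88, edgeR adjusted p = 0.76). NT5E was highest in K2 (17.7 CPM), a library rich in stromal markers. The list had a median of 0.

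GPR34 (ENSG00000171659.16, chrX:41688973-41697275, plus strand) encodes a receptor for lysophosphatidylserine. In WT it had 338 CPM in J2 and between 160 and 196 CPM in the 5 other libraries, and in LACTB KO between 134 and 185 CPM (median 172). Apart from J2 the genotypes overlapped closely. The log2 fold change was -0.26 (95% interval -0.64 to 0.12, edgeR adjusted p = 0.878), and without J2 it was -0.0435 (adjusted p = 0.894). GPR34 lies inside CASK, on the other strand, without shared exon bases, and CASK had its lowest level of the 12 in J2, 9.14 CPM. Of the 5 genes that make, break down or sense lysophosphatidylserine, 3 were tested and 0 passed either threshold (median -0.10).

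MERTK (ENSG00000153208.18, chr2:111898607-112029561, plus strand) encodes the TAM-family receptor by which macrophages take up dying cells. The WT libraries J1, J2, K1, K2, L1 and L2 had 71.9, 123, 80.4, 57.7, 59.9 and 62.6 CPM. The LACTB KO libraries A1, A2, B1, B2, C1 and C2 had 61.7, 49.5, 56.7, 57.7, 60.6 and 50.0 CPM. Single libraries of the genotypes overlapped, whereas the clone means did not: 97.5, 69.0 and 61.3 CPM in J, K and L against 55.6, 57.2 and 55.3 CPM in A, B and C. The log2 fold change was -0.43 (standard error 0.165, 95% interval -0.83 to -0.04, edgeR adjusted p = 0.754). It was -0.259 without J2 (edgeR adjusted p = 0.711, unadjusted p still under 0.05), -0.25 in differentiation 1 and -0.63 in differentiation 2. WT clone L differed least from the LACTB KO clones, and leaving it out gave -0.565. Leaving out LACTB KO clone A, B or C gave -0.42, -0.448 and -0.424, with an unadjusted p that no longer reached 0.05. None of the 5 tested genes among the other TAM receptors and their ligands passed either threshold, the nearest being the ligand GAS6 (log2 fold change -0.90, edgeR adjusted p = 0.814), which was highest in K2 (114.5 CPM) and J1 (69.5 CPM), the libraries with the highest stromal sums. This list had a median of -0.61.

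TGFBR1 (ENSG00000106799.14, chr9:99104038-99154192, plus strand) encodes the type I receptor for TGF-beta, which the medium contained. It had between 369 and 556 CPM in WT libraries (median 450) and between 376 and 533 CPM in LACTB KO libraries (median 452). The genotypes overlapped over almost their whole range. The log2 fold change was -0.00386 (95% interval -0.34 to 0.33, edgeR adjusted p = 0.996), and without J2 it was 0.0242. Of 16 other genes of the TGF-beta pathway, 0 passed the adjusted test and 3 had an unadjusted p under 0.05, all with a lower level in LACTB KO. These were SMAD3, a transducer of the signal (log2 fold change -2.01), TGFB2, a ligand (-1.77), and ITGAV, an integrin chain that frees latent TGF-beta (-0.49), each with an edgeR adjusted p of 0.726. SMAD3 was highest in J1 (10.4 CPM) and next in K2 (3.1 CPM), and TGFB2 in K2 (38.5 CPM), the libraries with the most stromal markers (J1 9692 CPM and K2 4363 CPM in sum), and the part of these markers in the values was not tested gene by gene. The list as a whole had a median of 0.

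SLC2A5 (ENSG00000142583.18, chr1:9035106-9088478, minus strand) encodes the fructose transporter GLUT5, a marker of microglia in brain. It had 115 CPM in J2, between 20.3 and 32.4 CPM in the 5 other WT libraries, and between 17.5 and 38.9 CPM in LACTB KO libraries (median 28.9). Its log2 fold change turned with J2: it was -0.46 with all libraries (95% interval -1.38 to 0.46, edgeR adjusted p = 0.878) and 0.253 without J2 (edgeR adjusted p = 0.836). In differentiation 1, which does not hold J2, it was 0.26. Of 8 other genes of hexose transport and fructose use, 0 passed the adjusted test and SLC2A10 had an unadjusted p under 0.05 (log2 fold change -2.16, edgeR adjusted p = 0.726), highest in J1 (6.85 CPM) and K2 (2.92 CPM) as the stromal markers were. The list had a median of -0.17.

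TMEM119 (ENSG00000183160.9, chr12:108589851-108598320, minus strand) encodes a membrane protein used to tell microglia from blood-derived macrophages, and outside the brain it is made in bone-forming cells. J2 had 287 counts (10.7 CPM), whereas the other WT libraries J1, K1, K2, L1 and L2 had 46, 52, 37, 9 and 18 counts. The LACTB KO libraries A1, A2, B1, B2, C1 and C2 had 28, 13, 10, 19, 24 and 15 counts, between 0.362 and 1.16 CPM. The genotypes overlapped, since L1 had the fewest counts of all 12 libraries. The log2 fold change was -2.02 (standard error 0.841, 95% interval -4.02 to -0.02, edgeR adjusted p = 0.776), and without J2 it was -0.885 (edgeR adjusted p = 0.844), with an unadjusted p that no longer reached 0.05. The same was so without clone J (-0.618) and without LACTB KO clone A (-2.16), B (-1.86) or C (-2.06). It was -0.72 in differentiation 1 and -2.89 in differentiation 2.

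SALL1 (ENSG00000103449.13, chr16:51135982-51152334, minus strand) encodes a zinc-finger transcription factor that sets microglial identity in the brain. It had between 10 and 25 counts in WT libraries, from 0.378 to 0.875 CPM (median 0.443), and between 7 and 20 counts in LACTB KO libraries, from 0.254 to 0.717 CPM (median 0.408). The genotypes overlapped. A log2 fold change of -0.20 was estimated, with a 95% interval of -1 to 0.61 (edgeR adjusted p = 0.919), and at this depth a 2-fold lower level in LACTB KO lies at the edge of that interval. Of the other SALL genes, SALL3 had 3 or fewer counts in every library, SALL4 had a log2 fold change of -0.16, and SALL2 one of -1.36 (edgeR adjusted p = 0.726, unadjusted p = 0.015). SALL2 had only between 5 and 37 counts per library. Its level was highest in J1 (1.4 CPM) and K2 (0.95 CPM), the libraries with the highest stromal sums.

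**Figure D3:**
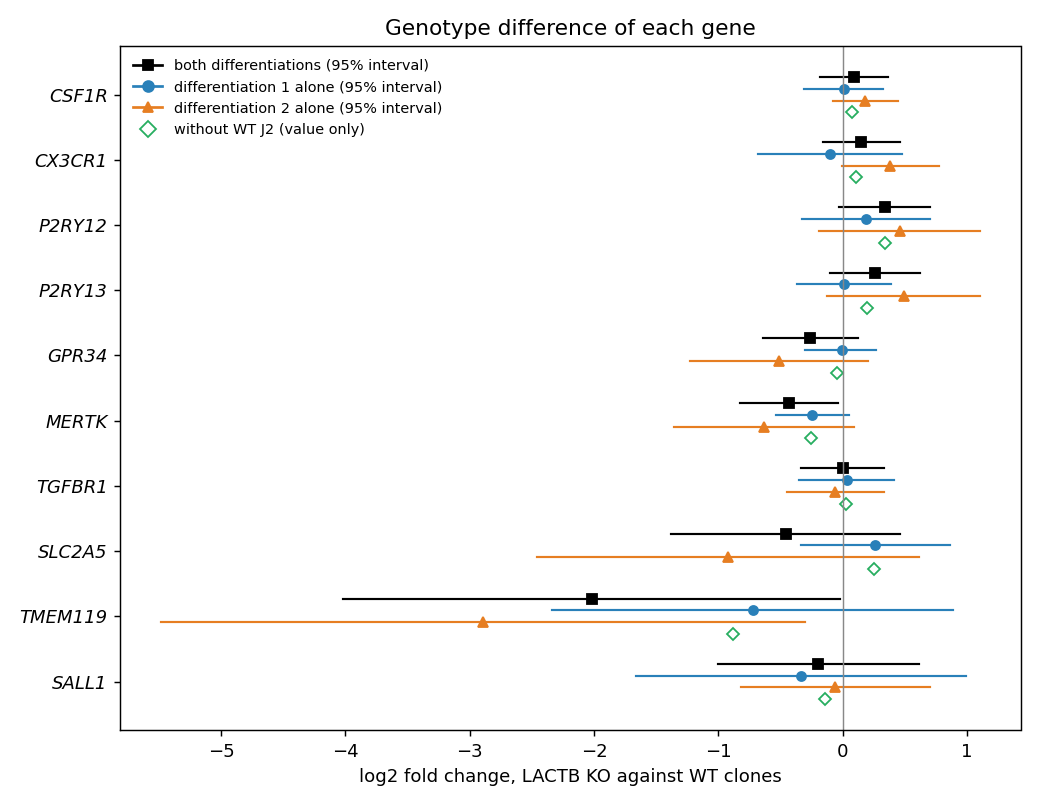
Log2 fold change of LACTB KO against WT clones for each gene, with 95% intervals, from both differentiations (black squares), differentiation 1 alone (blue circles) and differentiation 2 alone (orange triangles), and the value without library J2 (open green diamonds). The black interval excludes 0 for MERTK (-0.83 to -0.04) and TMEM119 (-4.02 to -0.02) before adjustment, and the diamond of SLC2A5 (0.253) lies on the other side of 0 from its square (-0.46).

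Markers of other cell types also had lower levels in LACTB KO, without passing the adjusted test. All 11 tested genes of the stromal list (collagens and other genes of fibroblast-like cells) had a negative log2 fold change, and 9 of them had an unadjusted p under 0.05. The stromal sum ranged from 22.5 to 9692 CPM in WT libraries, highest in J1 (9692) and K2 (4363), and from 18.6 to 966 CPM in LACTB KO libraries, and every gene of the list had over 3 counts in some library. With the stromal level of each clone as a covariate, the log2 fold change of MERTK was -0.158 (edgeR adjusted p = 1), that of TMEM119 -0.277 (adjusted p = 1), that of P2RY12 0.00646, and that of TGFBR1 0.32 (adjusted p = 1, unadjusted p under 0.05). In that fit LACTB, the edited gene, had -1.01, against -1.87 without the covariate. Since the stromal sums were highest in WT libraries, this fit of 6 clones cannot tell their part from that of the genotype. Genes of border-associated macrophages, the relatives of microglia at the brain's edges, had a negative log2 fold change in 6 of 6. Of these, FOLR2 (log2 fold change -1.62), SIGLEC1 (-0.94) and CD163 (-1.18) had an unadjusted p under 0.05. Their edgeR adjusted p values were 0.732, 0.735 and 0.76. In J2 these 3 genes had 80.2, 87.4 and 1071 CPM, against at most 18, 33.5 and 269 CPM in the other 11 libraries. In differentiation 1, which does not hold J2, their log2 fold changes were -0.59, -0.36 and -0.56. The sum over all 6 genes ranged from 187 to 1458 CPM in WT libraries and from 160 to 334 CPM in LACTB KO libraries. The part of these markers in the values of MERTK and TMEM119 was not tested in any other way. Over 20 other microglia-enriched genes such as the complement genes C1QA to C1QC and TREM2, 10 had a positive and 10 a negative log2 fold change (median 0), and none had an unadjusted p under 0.05.

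Library J2 was above every other library in 5 of the 10 genes, against 17.6% of all genes: TMEM119, SLC2A5, MERTK, GPR34 and TGFBR1. Against the median of the other 11 libraries, J2 had 15.7 times the CPM of TMEM119, 4.6 times that of SLC2A5, 2.05 times that of MERTK, 1.97 times that of GPR34 and 1.26 times that of TGFBR1. It was below every other library in P2RY13 (0.56 times the median) and CSF1R (0.771 times), 2 of the 10 against 15.5% of all genes. P2RY12 (0.643 times) and CX3CR1 (0.699 times) were also below the median there. In the same library, the border-associated macrophage genes summed to 1458 CPM, against at most 388 CPM in the other 11, and 5 of 6 were highest there, CD163 with 1071 CPM and MRC1 with 214.5 CPM. The other microglia-enriched genes summed to 7687 CPM, against at most 5898 CPM elsewhere, and 11 of 20 were highest in J2. Its stromal sum, 615 CPM, was below those of J1, K2 and B2, and its monocyte sum, 406 CPM, below those of K2, A2 and B2. J1, the other library of the same clone, lay on the same side of the mean of the 12 libraries as J2 in 7 of the 10 genes, and P2RY12 had 64.3 CPM in J1 and 65.7 CPM in J2. In TMEM119 and SLC2A5 they lay far apart, J2 having 6.15 and 5.28 times the CPM of J1. What set J2 apart was not tested, and the labels say nothing of it.

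A pair of patterns stood out when the genes were compared with each other over the 12 libraries, in which pairs of libraries share a clone. These correlations of log2 CPM are descriptions, and the sets were chosen after their values were seen. P2RY12, P2RY13, CX3CR1 and CSF1R went together, with Pearson r between 0.71 and 0.88 over their 6 pairs, and between 0.60 and 0.91 without J2. The closest pair was P2RY12 and P2RY13 (r = 0.88, and 0.91 without J2). GPR34, MERTK, SLC2A5 and TMEM119 had r between 0.63 and 0.91 with all libraries, but between -0.23 and 0.71 without J2, and so rested on that library, except that MERTK and TMEM119 kept r = 0.71. Between the sets r lay between -0.77 and -0.17, and without J2 between -0.54 and 0.45. The 5 genes most like the mean standardized pattern of all 10 genes over the 12 libraries were C13orf46 (r = 0.94), ARSD (0.89), TMEM107 (0.88), SLC29A3 (0.88) and TLR7 (0.87). The mean pattern stands for no single gene well, since its own members had r between 0.11 and 0.64 with it.

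**Figure D4:**
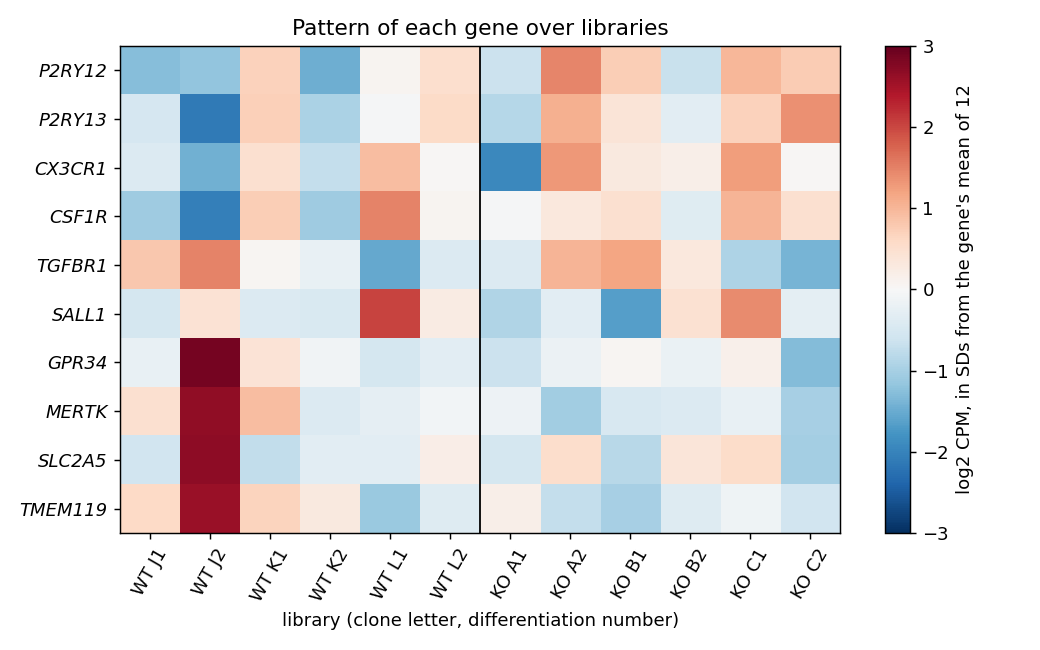
Log2 CPM of each gene (rows) in each of the 12 libraries (columns, WT left of the line and LACTB KO right), as SDs from the gene's mean over the 12 libraries, red above and blue below. The first 4 rows share their colours across libraries, and in the column of J2 the lower 4 rows reach between 2.584 and 2.864 SDs above their mean while P2RY13 and CSF1R lie at -2.121 and -2.062.

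Differentiation 2 was compared with differentiation 1 within each clone. Over all genes 0% passed the adjusted test and 9.95% had an unadjusted p under 0.05 (1546 genes), while of the 10 genes none reached either threshold in edgeR. The smallest p was that of CSF1R (log2 fold change -0.14, 95% interval -0.29 to 0.01, edgeR adjusted p = 0.529), lower in differentiation 2 in 5 of 6 clones. CX3CR1 was also lower in 5 of 6 clones (-0.07), but clone A went the other way by 1.03 on the log2 scale, and without clone A it was -0.273 (edgeR adjusted p = 0.27, unadjusted p under 0.05). SLC2A5 had the largest log2 fold change of the 10 (0.60, 95% interval -0.28 to 1.48, adjusted p = 0.671) and was higher in differentiation 2 in 5 of 6 clones, by 2.40 on the log2 scale in clone J and by between 0.31 and 0.87 in clones K, L, A and B, while clone C had -1.15. Without clone J it was 0.254 (edgeR adjusted p = 0.795), and without clone C 0.932 (edgeR adjusted p = 0.485, unadjusted p under 0.05). Clone A for CX3CR1 and clone C for SLC2A5 were singled out because they went the other way. The p-values without them depend on that choice and lend no support to a difference. Over all genes, 1817 of 15651 had an unadjusted p under 0.05 without A, and 1326 of 15631 without C. TGFBR1 differed by 0.05 (95% interval -0.12 to 0.23).

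The change between differentiations differed between genotypes in 0% of genes by adjusted p and in 0.908% at an unadjusted p under 0.05, and in none of the 10 genes (edgeR adjusted p = 0.999 for each). The estimates with the widest intervals were those of TMEM119 (log2 difference of -1.46, 95% interval -3.74 to 0.82) and SLC2A5 (-0.82, 95% interval -2.60 to 0.96). Without clone J they were -0.572 and -0.151, and over the clones left out in turn they lay between -2.37 (without K, unadjusted p under 0.05) and -0.572 for TMEM119 and between -1.19 and -0.151 for SLC2A5. Without K, 1204 of 15922 genes had an unadjusted p under 0.05 in this test, against 141 of 15530 with all clones. Clones of the same genotype were then compared with each other against the spread between the libraries of a clone. By adjusted p, 0.0451% of genes differed, 7 in all, LACTB among them with an edgeR adjusted p of 0.00101, and none of the 10. At an unadjusted p under 0.05, TGFBR1 (edgeR adjusted p = 0.475) and TMEM119 (edgeR adjusted p = 0.501) did, 2 of the 10 against 8.92% of all genes. TGFBR1 had clone means of 532, 449.5 and 400 CPM in J, K and L, and 476, 504 and 389 CPM in A, B and C, so that the lowest clone of each genotype, L and C, lay near each other. Without J2, 0 of the 10 genes had an unadjusted p under 0.05 in this test.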

How the data were processed

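Polyadenylated RNA of 12 libraries of WTC11 iMGLs was analysed. The authors trimmed adapters with Cutadapt and aligned paired reads from unstranded TruSeq libraries to hg38 with STAR, and deposited an estimated count per gene, not normalized between libraries. The counting tool, its annotation and its strand setting are not given in the sources used here. WT columns carry another abbreviation, and their group was taken from the labels. 

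Estimated counts were rounded and, for the genotypes, summed per clone. edgeR 4.0.16 in R 4.3.3 was used with TMM, filterByExpr (17577 genes for clone sums, 15530 for libraries), quasi-likelihood tests and a Benjamini-Hochberg adjustment over all tested genes (threshold 0.05). All 10 genes passed the filters. Differentiations were compared with clone as a fixed effect, genotype by differentiation by an interaction term, and clones within a genotype with differentiation as covariate. Levels are CPM from all counts of a library, and log2 CPM used a prior count of 2. Exon lengths, coordinates and overlaps are those of GENCODE 44 (GRCh38), where 9 of the 10 identifiers had the version of the table (MERTK had another). The tests were also run on simulated counts, which were given a smaller spread than the real counts.

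The genes and lists were chosen with earlier results of these data known. Named beside the 10 genes are LACTB, overlapping genes, for each list the 3 genes or fewer that had the lowest p, and the 5 genes most like the mean pattern. SPI1, MRC1, SALL3 and the genes that stand as examples of a list were named beyond this rule. Alternatives were DESeq2 1.42.0, its size factors, no filter, limma 3.58.1 voom, differentiation as replicate block, each differentiation alone, a stromal covariate, scaling to the pan-myeloid list, and each clone left out. Leaving out J2, and a block of the clone pairs J and A, K and B, L and C, were chosen after seeing the data. Fits with the differentiation or the clone pairs as block count the libraries of a clone as separate replicates. The labels number the differentiations, and the same number was taken to pair libraries of different clones. With group means taken off, a WT and a LACTB KO library of 1 differentiation correlated at 0.0363 on average (18 pairs), against -0.0357 across differentiations.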

Additional observations from a re-analysis of the deposited data

Results flagged for a closer look

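In each genotype's 6 libraries, the highest and lowest value of each of the 10 genes was set against the others by Dixon's criterion, on log2 CPM. Of 20 such tests 3 found a library far from the rest, where chance alone would mark about 1 in 20 groups. GPR34 had 338 CPM in WT library J2, and SLC2A5 had 115 CPM in the same library. SALL1 had 0.875 CPM in WT library L1, a value of 25 counts, which passed the criterion by little (its gap to the next library was 0.627 of the range on the log2 scale). TMEM119 and MERTK were also highest in J2 and did not pass on log2 CPM, whereas on CPM itself, a scale added after seeing the data, their gaps of 0.851 and 0.653 of the range would pass too, with those of the 3 genes above.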

How the results depend on the processing

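Under all 17 alternatives for the genotypes, 0 of the 10 genes had an adjusted p under 0.05. Over the whole table the count of 0 became 2 with no filter and 171 with DESeq2, and lay between 0 and 1 with clones or J2 left out. The number of the 10 with an unadjusted p under 0.05, 2, became 3 with no filter and with DESeq2, where P2RY12 joined MERTK and TMEM119. It was 1 with limma voom (MERTK), in differentiation 2 alone (TMEM119) and with the stromal covariate (TGFBR1, neither MERTK nor TMEM119), and 0 in differentiation 1 alone. With a clone or J2 left out it lay between 0 (without A, B or C) and 4 (without L: P2RY12, TMEM119, GPR34 and MERTK), being 1 without J or J2. The number over all genes moved as well, from 1118 of 17577 to 1986 of 18042 without L. Without A, B and C it was 515 of 18140, 888 of 18100 and 772 of 18105, and with limma voom 607 of 15530. Leaving a clone or J2 out, the log2 fold change lay between -0.409 and 0.0838 for SALL1, -0.00837 and 0.187 for CSF1R, -0.095 and 0.105 for TGFBR1 and -0.74 and 0.253 for SLC2A5. The sign turned in differentiation 1 for CX3CR1 (-0.0996), TGFBR1 (0.0287) and SLC2A5 (0.261), with the stromal covariate for P2RY13 (-0.0506), CX3CR1 (-0.0623), GPR34 (0.0473), CSF1R (-0.0828) and TGFBR1 (0.32), and for TGFBR1 with no filter (0.011) and pan-myeloid scaling (0.0258). MERTK and TMEM119 stayed negative in all 17, from -0.635 to -0.158 and from -2.89 to -0.277. The differentiation as replicate block gave 0 genes by adjusted p, left the 10 genes' count at 2 and gave -0.438 for MERTK. With the clone pairs as block P2RY12 had 0.327 (edgeR adjusted p = 0.551, unadjusted p under 0.05) and TMEM119 -1.21 (edgeR adjusted p = 0.577). LACTB without clone B had -3.2 (edgeR adjusted p = 0.0157).

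Between differentiations the count of 0 genes became 2 with no replicate block, 80 with no filter and lay between 0 and 50 (without J) with clones left out. Of the 10, 1 had an unadjusted p under 0.05 with no filter and with pan-myeloid scaling, and between 0 and 2 with clones left out. Over all genes this held for 1758 of 36924 with no filter and 3311 of 15530 with pan-myeloid scaling, against 1546 of 15530 in the main fit. With clones left out it held for between 987 of 15581 genes (without B) and 1817 of 15651 (without A). Pan-myeloid scaling took the median of all genes to -0.138 and turned GPR34 (-0.0563) and TGFBR1 (-0.0835). With clones left out the log2 difference lay between -0.234 and 0.0722 for P2RY12, -0.169 and 0.0603 for P2RY13, -0.14 and 0.702 for TMEM119, -0.21 and 0.171 for SALL1, -0.0988 and 0.187 for GPR34, -0.196 and 0.0526 for MERTK, and 0.254 and 0.932 for SLC2A5. SALL1 with no filter (0.00988) and MERTK with no replicate block (0.00562) turned as well. In the interaction between 0 and 2 of the 10 had an unadjusted p under 0.05 with clones left out. Over all genes this held for between 59 of 15817 (without J) and 1204 of 15922 (without K), against 141 of 15530 in the main fit. The ranges of the interaction held 0 for P2RY12 (-0.105 to 0.553), SALL1 (-0.136 to 0.834) and MERTK (-0.596 to 0.0199). Between clones the 7 genes became 196 with no filter, 13 with pan-myeloid scaling, 16 with the stromal covariate and 15 without J2, which also took the 10 genes' count from 2 to 0. The cause of these changes was not tested. Counts of 7 to 287 limit what can be seen of TMEM119 and SALL1.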

Other observations

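Some genes of other cell types were at the floor of detection. Of 10 granulocyte and mast cell genes 8 had 3 or fewer counts in every library, among them MPO, ELANE and TPSAB1. The same held for 3 of 6 pluripotency genes (LIN28A, DPPA4 and TDGF1). In the same lists, KIT had between 46 and 778 counts per library and L1TD1 between 50 and 562. The monocyte list summed to between 213 and 893 CPM, highest in K2 (893) and B2 (753), both of differentiation 2, and VCAN was its gene with the smallest p between genotypes (log2 fold change -2.82, edgeR adjusted p = 0.754). VCAN was highest in K2 (52.4 CPM) and J1 (36.9 CPM), the libraries with the highest stromal sums, and the part of stromal cells in its value was not tested. Between differentiations 5 of 8 monocyte genes were higher in differentiation 2 at an unadjusted p under 0.05, and 0 by adjusted p in edgeR. Among pan-myeloid genes, 0 of 20 had an unadjusted p under 0.05 between genotypes, the smallest p being that of CD68 (log2 fold change -0.70, edgeR adjusted p = 0.816).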
